A study of Mus musculus with 4 samples.

Results

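Initiation of transcription at 10 genes of the basement membrane was compared between 2 organs of the E14.5 mouse embryo, liver and yolk sac. The 10 genes, out of 21951 protein-coding genes in the GENCODE M21 annotation of GRCm38, were taken by name: 6 laminin subunits (Lama1, Lama4, Lama5, Lamb1, Lamb2 and Lamc1), both nidogens (Nid1 and Nid2), the perlecan gene Hspg2 and Sparc. The data are 4 PRO-seq libraries, 2 from liver and 2 from yolk sac, each made from chromatin of tissue pooled from 6 embryos. PRO-seq (precision nuclear run-on sequencing) reads the nascent RNA of engaged RNA polymerases. All embryos had C57BL/6J mothers and fathers of a mixed C57BL/6J and CAST/EiJ background chosen to carry only CAST/EiJ alleles across Dlk1/Gtl2 (chromosome 12, where Lamb1 also lies); the strain label of each library spells the first strain C57BL/6h. Both tissues share this cross, alleles were not resolved, and each pool mixes all the cells of its organ. In such pools, fewer cells of a type and less initiation per cell cannot be told apart.

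Each library came as a list of peaks from dREG, a classifier that marks intervals of transcription initiation, whether at promoters or far from them. A peak has a position and a score without a unit, and no read count, so the depth of each library is unknown. The liver lists held 24863 and 24333 peaks and the yolk sac lists 50525 and 43055. A peak was called a promoter peak of a gene when it overlapped the 500 bp on either side of any of its annotated starts. A peak was called distal when it overlapped no such window of any gene, coding or not, and the distal peaks of a locus were those in the gene or in 20 kb on either side. With 2 libraries against 2, an exact two-sided permutation test cannot give a p below 0.333, so differences were set against the spread between replicates and against the same count over all coding genes. The labels do not say whether the 2 pools of a tissue share litters, so a p measures only the spread between these pools.

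Basement membranes are thin sheets of matrix under epithelia and around vessels. Laminins, trimers of 1 alpha, 1 beta and 1 gamma chain, polymerise on the cell surface; nidogens and the heparan sulfate proteoglycan perlecan link this network to that of type IV collagen. In the rodent yolk sac, the parietal endoderm is known for its massive output of laminin and Sparc into Reichert's membrane, while the visceral yolk sac has a thinner basement membrane between its endoderm and its vascular mesoderm. In the fetal liver, hepatocyte cords face sinusoids that lack a continuous basement membrane.

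RefSeq promoter sequences (GRCm38.p6) were at hand for 6 of the 10 genes: Hspg2, Lama5, Lamb1, Lamb2, Nid1 and Sparc. The 250 bases before the start of each RefSeq promoter record were searched, and are shown for 3 genes that behaved differently. Lama5 had a promoter peak in yolk sac alone and Nid1 had none in any library. Sparc had the highest-ranked promoter peak of the group in yolk sac. At Nid1 and Sparc the record starts at the RefSeq start from which distances are measured below. At Lama5, Lamb1, Lamb2 and Hspg2 it starts downstream of that point, so their windows contain the RefSeq start. Capitals mark the GC box, GGGCGG on either strand.
Lama5, chr2:180225860-180226109, minus strand: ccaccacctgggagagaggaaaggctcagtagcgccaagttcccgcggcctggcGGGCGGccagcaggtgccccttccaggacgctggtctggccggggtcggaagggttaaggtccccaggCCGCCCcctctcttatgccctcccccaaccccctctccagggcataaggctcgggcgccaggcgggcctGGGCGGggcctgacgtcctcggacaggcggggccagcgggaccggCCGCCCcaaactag
Nid1, chr13:13437352-13437601, plus strand: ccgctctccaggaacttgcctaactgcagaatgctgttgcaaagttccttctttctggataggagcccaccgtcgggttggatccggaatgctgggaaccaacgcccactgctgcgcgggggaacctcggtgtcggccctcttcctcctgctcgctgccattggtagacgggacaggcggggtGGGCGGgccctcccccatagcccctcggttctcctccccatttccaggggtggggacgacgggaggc
Sparc, chr11:55420081-55420330, minus strand: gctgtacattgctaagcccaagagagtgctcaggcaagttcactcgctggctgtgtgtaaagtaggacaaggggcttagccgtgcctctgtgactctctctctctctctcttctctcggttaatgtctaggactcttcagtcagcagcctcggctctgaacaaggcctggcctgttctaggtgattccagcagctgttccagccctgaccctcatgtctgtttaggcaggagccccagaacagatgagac

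The 3 promoters differ in base composition. The G+C share was 72.4% at Lama5, 64.4% at Nid1 and 54% at Sparc, against a median of 52.4% over the 32851 promoters of the table. Lama5 had 4 GC boxes, Nid1 had 1 and Sparc had none; of all promoters, 32.7% had at least 1. Hspg2 had 5, Lamb1 had 2 and Lamb2 none. The CCAAT box (CCAAT) matched at Lamb1 and Nid1 and in 33.8% of all promoters. None of the 6 windows held TATAAA, the GATA letters AGATAA, the SOX letters AACAAT or the AP-1 letters TGANTCA, which 12.4%, 9.99%, 9.42% and 6.75% of all promoters held. Both strands were searched, and no base of the 6 windows belonged to matches of different motifs. These are letters in a window, and the lists do not bear on binding.

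Promoter peaks were found at 8 of the 10 genes in both liver libraries and at 9 of 10 in both yolk sac libraries. The 8 genes called in all 4 lists were Lama1, Lama4, Lamb1, Lamb2, Lamc1, Nid2, Hspg2 and Sparc; 53.8% of all coding genes had this pattern. Lama5 was the 1 gene called in yolk sac only, a pattern of 5.25% of coding genes, and no member was liver-only, against 1.01% of coding genes. The difference of 1 gene between tissues had an exact permutation p of 0.333, the smallest possible, and the replicates did not differ. The map of peaks around each gene shows these calls and the distal peaks described further on.

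**Figure D1:**
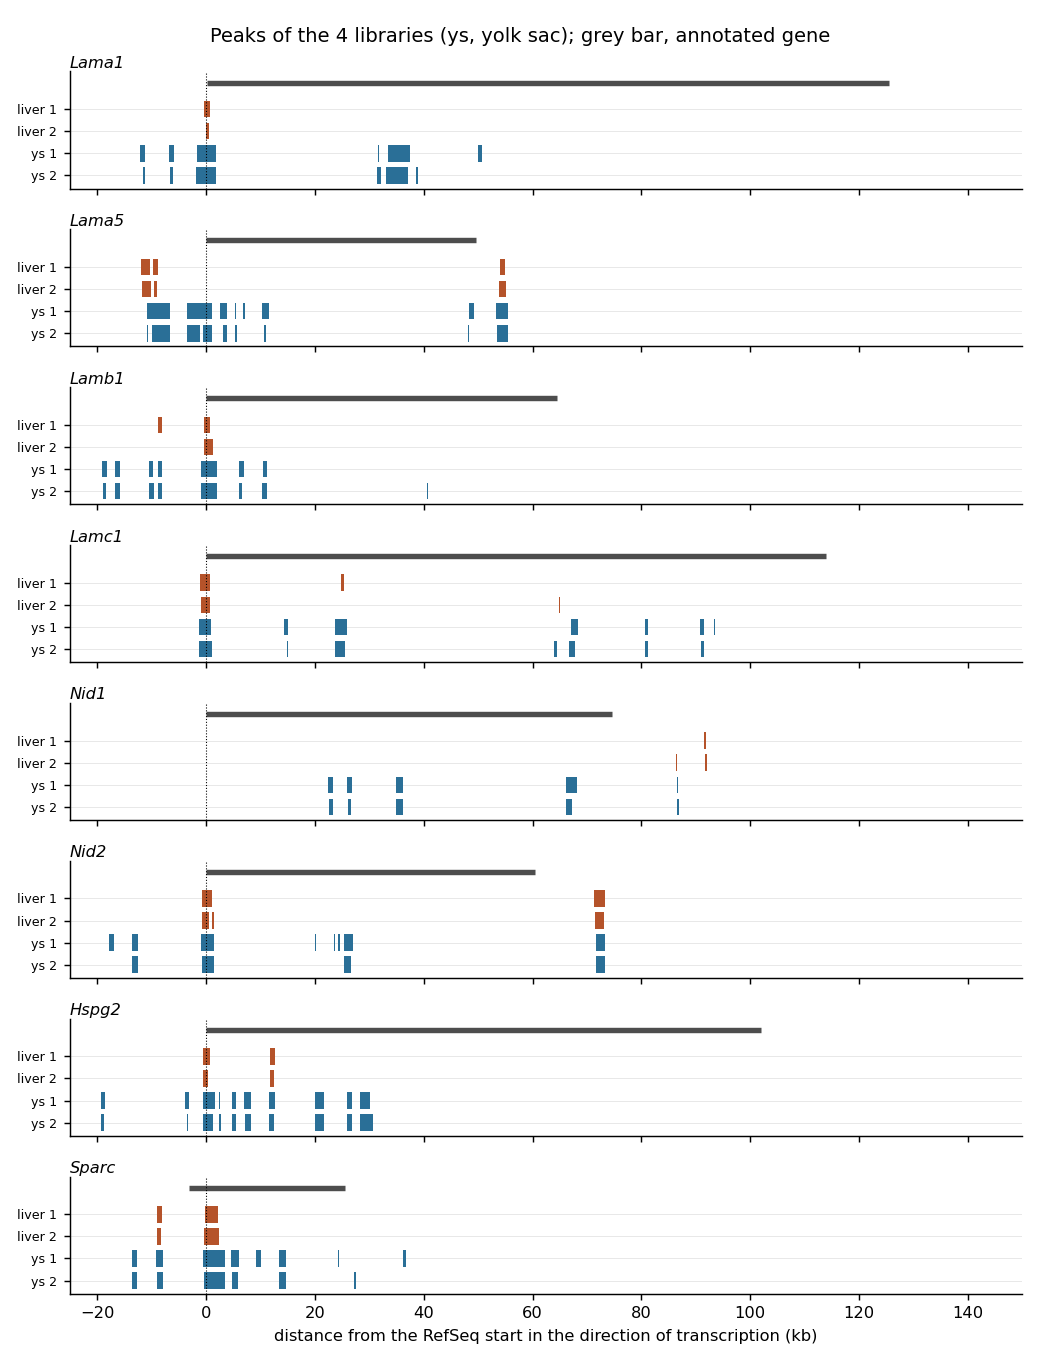
Positions of all peaks of the 4 libraries at 8 of the genes, as distance in kb from the RefSeq start in the direction of transcription; boxes are peaks (liver in brown, yolk sac in blue) and the grey bar is the annotated gene. Promoter peaks of neighbouring genes are included. Peaks within the genes are mostly blue, and Nid1 has no box at its start.

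Lama5 codes for the alpha-5 chain of the broad epithelial laminins and lies on chromosome 2 (180176373 to 180225859, minus strand). Its start carried a peak of 4702 bp in yolk sac replicate 1 and of 1702 bp in replicate 2, where a separate peak lay just upstream. Both lay in the middle of their lists, at the 61.3 and 66.2 percentiles of the score (the percentile is the share of the peaks of a list with a score at or below). In liver, the peaks nearest to the RefSeq start were 8797 and 8897 bp upstream of it. That upstream peak belongs to a region, from 180232451 to 180237752, that all 4 libraries called. Yolk sac also had small promoter peaks at an annotated start near the 3' end of Lama5, of 1052 and 152 bp.

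Nid1, nidogen-1, lies on chromosome 13 (13437551 to 13512269, plus strand) and has 3 annotated starts. None of the 4 lists had a peak within 500 bp of any of them, nor within 1000 bp. The nearest peak to the RefSeq start was 22.4 and 22.6 kb downstream in the yolk sac lists and 91.4 and 86.3 kb downstream in the liver lists. Within the gene, both yolk sac libraries nevertheless had 4 distal peaks each, and both liver libraries had none. Their midpoints lay 22.9, 26.4, 35.5 and 67.2 kb from the RefSeq start, 3 in introns and 1 over an exon.

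At the 8 genes called in all 4 libraries, each yolk sac promoter peak was wider than each liver one, at all 8 genes. The same held for 35.6% of the 11805 coding genes called in all 4 lists, and the reverse for 20.7%. The mean width over the 8 genes was 1290 bp (replicate 1) and 1158 bp (replicate 2) in liver and 2752 and 2377 bp in yolk sac, that is 1224 ± 92.8 against 2565 ± 265 bp (SD, n = 2 libraries; exact permutation p = 0.333). The median ratio of yolk sac to liver width was 1.97 over these genes and 1.04 over all coding genes called in all 4 lists. The lists themselves differed little, with a median promoter peak of 1552 and 1402 bp in liver and of 1552 and 1452 bp in yolk sac. Measured against that median, the mean ratio over the 8 genes was 0.831 and 0.826 in liver and 1.77 and 1.64 in yolk sac. Not every gene followed its mean. Sparc and Lamc1 were wider than the median in both liver lists, Nid2 in liver replicate 1 and Lamb1 in liver replicate 2. Lamb2 was narrower than the median in yolk sac replicate 2. On this scale too the tissues did not overlap at any of the 8 genes, which 37.7% of coding genes called in all 4 lists shared.

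Among the alpha chains, Lama1, the chain of early embryonic and Reichert's membrane laminin (chromosome 17, 67697259 to 67822647), had the largest gain in base pairs. Its promoter peak spanned 1002 and 402 bp in liver and 3552 and 3752 bp in yolk sac. The yolk sac peaks reached 1626 and 1876 bp upstream and 1925 and 1875 bp downstream of the RefSeq start, so they extended to both sides. Lama4, the alpha-4 chain found in vessels and mesenchyme (chromosome 10, 38965515 to 39110188), had widths of 502 and 552 bp in liver and 1852 bp in both yolk sac libraries. At both genes the tissues were far apart relative to the replicates.

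Lamb1, the beta-1 chain, lies on chromosome 12 (31265234 to 31329644) and had widths of 1052 and 1552 bp in liver and 2952 and 2802 bp in yolk sac. Both yolk sac libraries also had a second promoter peak, at 31275551 to 31276352 in replicate 1, over an internal start; neither liver library had it. Lamb2, the beta-2 chain (chromosome 9, 108479736 to 108490530), had 402 and 102 bp in liver and 2852 and 702 bp in yolk sac. Its yolk sac replicates were thus much further apart than its liver replicates, and its ratio of 7.05 rests on very narrow liver peaks. Lamc1, the gamma-1 chain shared by most laminins (chromosome 1, 153218922 to 153332786), showed the smallest ratio of the group, 1.30, from 1852 and 1652 bp in liver to 2252 and 2302 bp in yolk sac.

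Among the linkers, Nid2, nidogen-2 (chromosome 14, 19751265 to 19811787), had widths of 1802 and 1352 bp in liver and 2302 and 2102 bp in yolk sac. Hspg2, perlecan (chromosome 4, 137468769 to 137570630), had 1302 and 1002 bp against 2302 and 1702 bp. Sparc, a collagen-binding glycoprotein secreted by matrix-forming cells (chromosome 11, 55394500 to 55423183, minus strand), had the widest liver peaks of the group, 2402 and 2652 bp, and 3952 and 3802 bp in yolk sac. The yolk sac peak of Sparc reached 3479 bp into the gene in both libraries, against 2229 and 2329 bp in liver. Over the 8 genes the mean reach downstream of the RefSeq start was 835 ± 53 bp in liver and 1704 ± 133 bp in yolk sac, and upstream 388 ± 39.8 and 859 ± 133 bp (SD, n = 2 libraries).

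**Figure D2:**
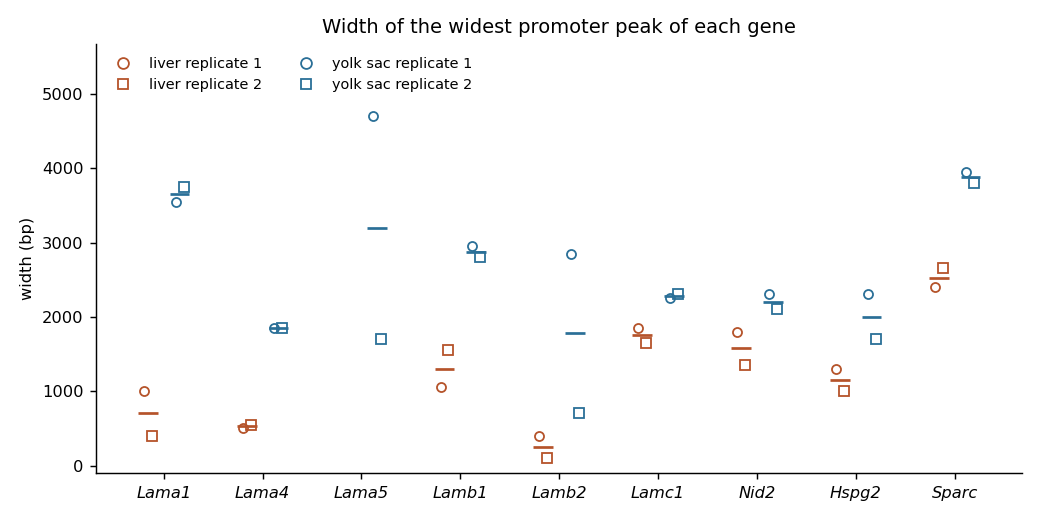
Width in bp of the widest promoter peak of each gene in each library (circles, replicate 1; squares, replicate 2; short lines, tissue means). At the 8 genes with peaks in both tissues every yolk sac point lies above both liver points; Lama5 has yolk sac points only, and Nid1 is not drawn because it had no promoter peak.

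Score percentiles placed the promoter peaks differently within each list. They describe each list on its own, since the lists differ in length and the scores were not scaled between libraries. In the yolk sac lists Sparc ranked first of the group, at the 94.5 and 90.7 percentiles, followed by Lama4 at 85.7 and 74.1. Lamb2, at 45.8 and 31.1, and Lama1, at 36.9 and 35.6, were low. In the liver lists Lamb1 ranked first in replicate 1, at 84.8 (46.2 in replicate 2), and Hspg2 in replicate 2, at 77.8 (64.8 in replicate 1), while Lamc1 came next in both, at 71.1 and 65.2. Lama1 stood at 34.0 and 8.97 and Lamb2 at 16.7 and 5.61, so the same pair was low in both tissues. They were not alone: Lama4 stood at 34.9 and 24.0 in liver, and Lamc1 at 41.8 and 45.0 in yolk sac.

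**Figure D3:**
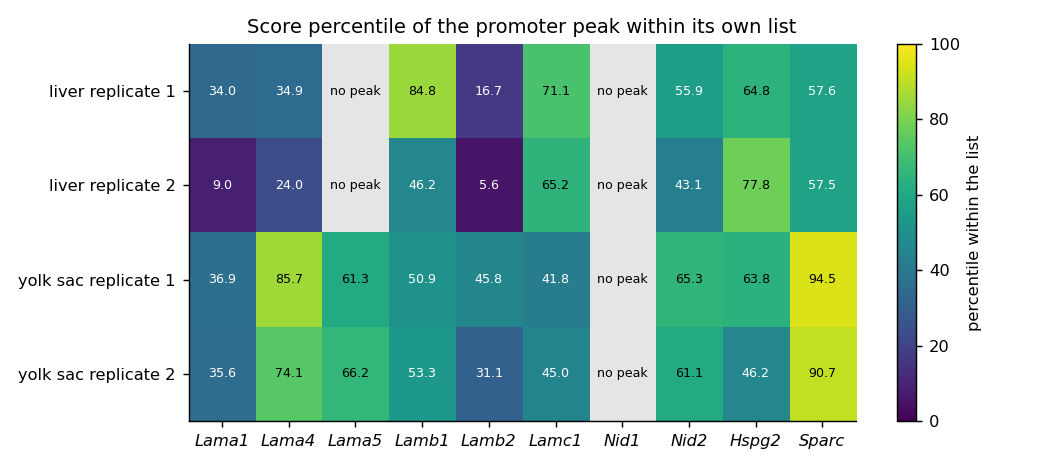
Score percentile of the widest promoter peak of each gene within the list of its own library; grey cells have no promoter peak. Sparc is above 90 in both yolk sac lists, and Lamb2 is below 17 in both liver lists.

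Distal peaks differed more than promoter calls. The 10 loci together held 7 (replicate 1) and 9 (replicate 2) distal peaks in liver, while yolk sac had 51 and 53, that is 8 ± 1.41 and 52 ± 1.41 (SD, n = 2; exact permutation p = 0.333). Yolk sac had 6.5 times as many, where all distal peaks of the lists, 11725 and 10750 against 33596 and 26992, gave 2.70. Within the gene bodies the counts were 2 and 3 in liver and 35 and 36 in yolk sac; in the flanks they were 5 and 6 against 16 and 17. The body counts were higher in yolk sac without overlap at 9 of the 9 genes with a body peak; of the 8404 such coding genes, 44.7% were higher in yolk sac and 9.04% in liver. Counts of yolk sac above liver without overlap were found at 8 of the 9 loci with a distal peak, and the reverse at none. Of the 14408 coding genes with a distal peak, 47.2% were higher in yolk sac and 8.2% higher in liver by the same rule. The median difference was 4.75 peaks over the 10 loci and 1 peak over those coding genes. The 10 genes are long, with a median of 69.6 kb against 17.4 kb for coding genes, and the part of gene length in these counts was not tested.

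The yolk sac lists are longer, so the count was repeated on lists shortened to their top 24333 peaks by score. All distal peaks then numbered 11286 and 10750 in liver and 11820 and 11138 in yolk sac, a ratio of 1.04. The 10 loci held 7 and 9 in liver and 23 and 25 in yolk sac, a ratio of 3 (exact permutation p = 0.333). Of the 9 loci with a distal peak, 6 remained higher in yolk sac without overlap (Lama1, Lamb1, Lamc1, Nid1, Hspg2 and Sparc) and none was higher in liver, against 17.7% and 30.2% of coding genes. The promoter calls did not keep their direction: 8 and 8 members had a promoter peak in liver and 5 and 7 in yolk sac. Lama1 and Lamb2 were then called in liver only, since their yolk sac peaks scored below the limit of the shortened yolk sac lists. Lama5 stayed yolk-sac-only. The lowest score kept was 1.08 and 1.05 in yolk sac, against 0.809 in liver replicate 1 and less in liver replicate 2. The dropped yolk sac peaks of Lama1 scored 1.008 and 1.004, and its kept liver peaks 0.991 and 0.848. At Lamb2 the scores were 1.054 and 0.977 against 0.882 and 0.829. These liver-only calls thus reflect unequal limits and do not show lower scores in yolk sac. The 4 genes still called in all lists were Lama4, Nid2, Hspg2 and Sparc.

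**Figure D4:**
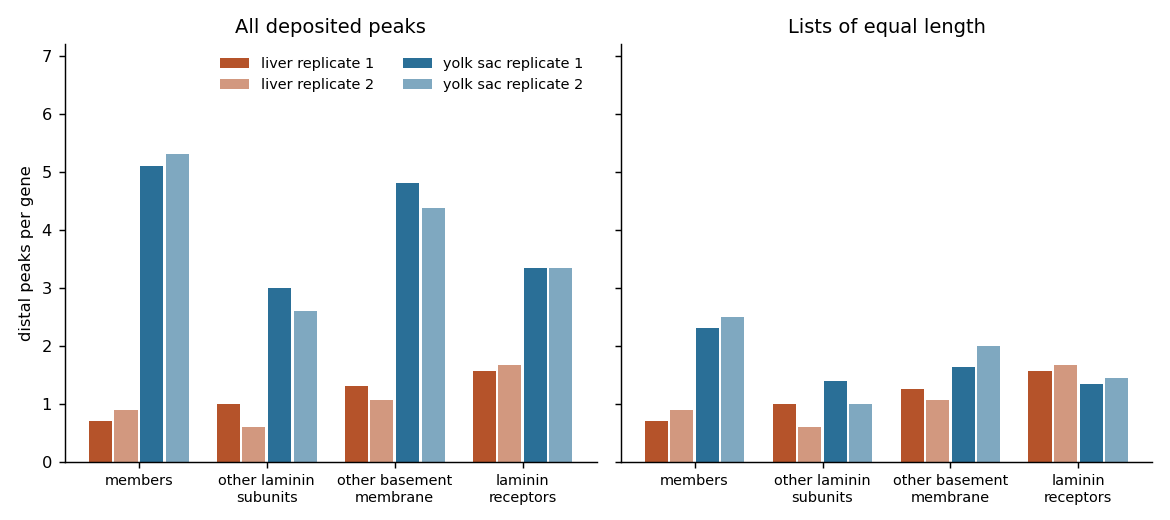
Distal peaks per gene in each library (liver in brown, yolk sac in blue; darker bars, replicate 1) for the 10 genes (members) and the 3 lists of related genes, with all deposited peaks (left) and with the top 24333 by score (right). The 10 genes show 51 and 53 peaks in total in yolk sac on the left and 23 and 25 on the right, against 7 and 9 in liver on both sides.

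Hspg2 had the most distal peaks of the group, with yolk sac counts of 11 and 10 and liver counts of 1 and 1. Its 8 regions within the gene, formed by merging overlapping peaks of the 4 lists, had their midpoints between 2.6 and 29.5 kb from the start, all in introns, in a gene of 102 kb. Both liver libraries called 1 of these 8, at 137480351 to 137481502, which all 4 libraries shared. With the shortened lists the yolk sac counts of Hspg2 were 5 and 6, and the liver counts stayed 1 and 1. Of the protein-coding genes outside all lists, the 3 with the most similar 4 counts (smallest Euclidean distance of log2 count with a pseudocount of 0.5, over the 4 libraries) were Cdh3, with 11 and 10 against 1 and 1, and Ulk4 and Zcchc24, both with 10 and 10 against 1 and 1; 4 genes were at or within the distance of the third, and ties went by symbol.

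Nid2 had yolk sac counts of 7 and 6 and liver counts of 0 and 1. Its highest-ranked yolk-sac-only region, at 19737701 to 19738752, was 13.0 kb upstream of the start and stood at the 77.1 and 81.7 percentiles of the yolk sac lists. Sparc had 7 and 5 against 1 and 1. A region 13.1 kb upstream of Sparc, at 55432701 to 55433702, was called in yolk sac only and stood at the 91.0 and 95.2 percentiles, the highest of all distal regions of the group in the lower of its yolk sac ranks. Nearer to the start of Sparc, a region 8.5 kb upstream, at 55427951 to 55429202, was called in all 4 libraries, so the flank held a shared and a yolk-sac-only site side by side.

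Lamb1 had yolk sac counts of 5 and 7 and liver counts of 1 and 0, and 3 of its yolk-sac-only regions lay upstream, 10020, 16270 and 18645 bp from the start. The middle one, at 31248401 to 31249352, ranked at the 84.6 and 89.0 percentiles. Lamc1 had 5 and 6 against 1 and 1, and its 4 yolk-sac-only regions lay 14.7 to 91.2 kb into the gene. Lama1 had 5 and 5 against 0 and 0, with an intronic region of 4452 bp at 67730201 to 67734652, 35.3 kb into the gene. Lama5 had 5 and 7 against 2 and 2, and Nid1 had 5 and 5 against 1 and 2, with the 1 liver-only region of the group 91.7 kb from its start, beyond the gene.

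Lama4 and Lamb2 stood apart. Lama4, at 145 kb the longest of the 10 genes, had 0 distal peaks in all 4 libraries. Lamb2 had 0 and 1 in liver and 1 and 2 in yolk sac, which overlapped. Starts of 4 other coding genes lie within 20 kb of Lamb2, and peaks at those starts were not counted.

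**Figure D5:**
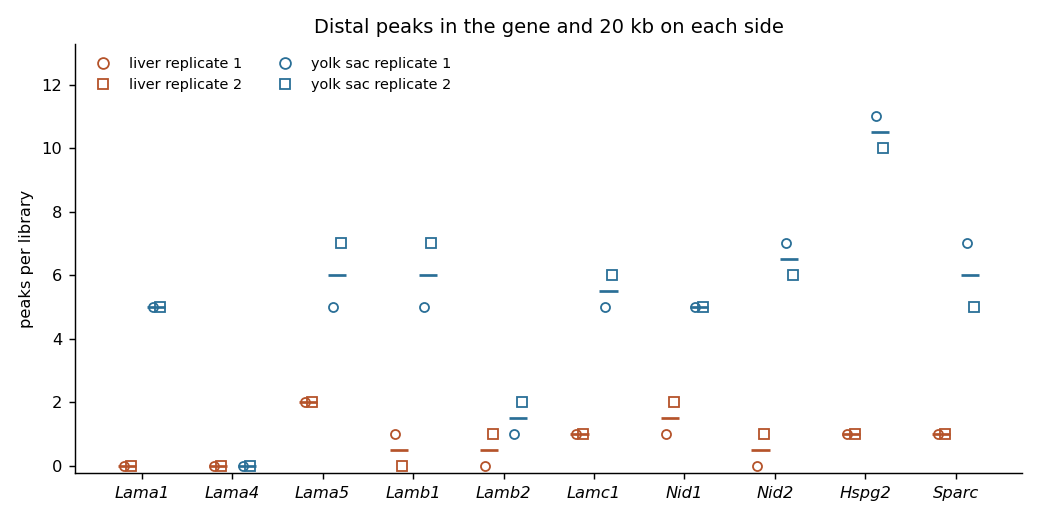
Number of distal peaks in each gene and 20 kb on each side, per library (circles, replicate 1; squares, replicate 2; short lines, tissue means). Yolk sac points are above liver points at 8 genes, Lamb2 overlaps, and Lama4 is at 0 throughout.

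The merged peaks gave 60 distal regions at the 10 loci. Of these, 36 were yolk-sac-only (in the lists of both yolk sac pools and of neither liver pool), 1 was liver-only, 3 were called in all 4 libraries and 20 had other patterns. The yolk-sac-only share was 60% here and 40.3% over the 42751 distal regions of the genome, where 8.01% were liver-only. With the shortened lists 14 of 35 regions were yolk-sac-only and 1 was liver-only, where 23.3% of all distal regions were yolk-sac-only and 20.7% liver-only. Within the genes lay 27 of the 36, with 26 midpoints in introns and 1 in an exon, and 22 of the 27 midpoints were nearer to the start than to the end of the annotated gene. The other 9 were all upstream, and none was downstream. These positions were not counted over all yolk-sac-only distal regions, so whether they are particular to the 10 genes was not tested. The ranks of the 36 were ordinary: the median of the lower yolk sac percentile was 34.9, against 32.5 over all yolk-sac-only distal regions.

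Other genes of the same matrix were taken from 3 lists. Among the other laminin subunits, Lama2 and Lama3 had promoter peaks in yolk sac only, Lamb3 in all 4 libraries and Lamc3 in none. Over all coding genes, 5.25% were yolk-sac-only and 53.8% were called in all 4 libraries. The percentiles of Lama3, a chain of epithelial anchoring laminin, were 90.9 and 87.9 in the yolk sac lists; those of Lama2 were 61.6 and 46.3. Both calls held with the shortened lists, where 2.61% of coding genes were yolk-sac-only and 3.01% liver-only. Distal counts were higher in yolk sac without overlap at Lamb3 (7 and 8 against 4 and 3) and at Lamc3 (3 and 3 against 0 and 0). Over coding genes with a distal peak, 47.2% were higher in yolk sac and 8.2% in liver. With the shortened lists the distal peaks of this list totalled 7 and 5 in yolk sac against 5 and 3 in liver, which overlapped. Only 1 gene of the list was then higher in yolk sac and none in liver, against 17.7% and 30.2% of coding genes. Lama2, a muscle chain in a gene of 640 kb, had no distal peak in yolk sac, and 1 in a single liver library.

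Of 16 other basement membrane components, 11 had promoter peaks in all 4 libraries, 2 in yolk sac only (Smoc2 and Egflam) and 3 in other patterns (Col15a1, Npnt and Smoc1). Of all coding genes, 53.8% had promoter peaks in all 4 libraries and 5.25% in yolk sac only. Distal counts were higher in yolk sac without overlap at 12 and higher in liver at 1, Ntn4 (4 and 4 against 5 and 5), named after its values were seen; over coding genes with a distal peak these shares were 47.2% and 8.2%. The widest gaps were at Fras1 (10 and 12 against 2 and 1) and Frem2 (9 and 9 against 0 and 0), which form an epithelial adhesion complex. Fbln1, fibulin-1, had 7 and 6 against 0 and 0. The others with a gap of at least 3 peaks were Col15a1, Col18a1, Tinagl1, Egflam, Npnt and Smoc1. With the shortened lists 7 of the 16 were higher in yolk sac and 2 in liver, against 17.7% and 30.2% of coding genes. Smoc1 then had a promoter peak in liver only, as did 3.01% of coding genes.

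Of 9 laminin receptors, 8 had promoter peaks in all 4 libraries, and Itga7, an integrin alpha chain, was yolk-sac-only with narrow peaks of 402 and 352 bp. These patterns were those of 53.8% and 5.25% of all coding genes. Distal counts were higher in yolk sac at 6 and in liver at 1, Sdc1 (0 and 0 against 2 and 1), also named after its values were seen, beside the same 47.2% and 8.2% of coding genes. The gaps of at least 3 peaks were at Dag1, dystroglycan (5 and 5 against 2 and 2), and Bcam (4 and 5 against 0 and 2). With the shortened lists the receptors had a total of 12 and 13 distal peaks in yolk sac against 14 and 15 in liver, and 2 genes were higher in each tissue, where 17.7% of coding genes were higher in yolk sac and 30.2% in liver. Itga7 then had no promoter peak.

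Peaks were also counted at lists of marker genes of cell types, of which the visceral and parietal endoderm lists share a gene. Many markers had promoter peaks in both tissues, so these calls do not show which cells the pools held. Of 8 erythroid markers, promoter peaks were found at 8 and 8 in liver and 2 and 2 in yolk sac, and of 8 hepatic markers at 6 and 6 in both. Of 8 visceral endoderm markers the counts were 6 and 4 in liver and 8 and 8 in yolk sac, and of 7 parietal endoderm markers (members excluded) 5 and 6 in liver and 6 and 6 in yolk sac. Of 8 mesenchymal markers they were 5 and 7 against 8 and 8, of 8 endothelial markers 6 and 6 against 8 and 8, and of 6 mesothelial markers 0 and 1 against 5 and 5. The share of all coding genes with a promoter peak was 56.1% and 57.9% in liver, against 63.8% and 62.4% in yolk sac. Distal peaks at the endothelial loci numbered 2 and 4 in liver against 32 and 21 in yolk sac, and at the mesenchymal loci 4 and 5 against 31 and 30. The parietal endoderm loci, with similar promoter counts in both tissues, had 5 and 4 against 20 and 19. The mesothelial loci had 0 and 1 against 11 and 9. Over all distal peaks of the lists the ratio of yolk sac to liver was 2.70. The visceral endoderm loci had 17 and 14 against 33 and 34, the hepatic loci 19 and 18 against 17 and 22, and the erythroid loci 18 and 18 against 7 and 6. With the shortened lists the mesenchymal loci had 4 and 5 against 10 and 15, the endothelial loci 2 and 4 against 9 and 7, and the parietal endoderm loci 5 and 4 against 5 and 9. The mesothelial loci had 0 and 1 against 2 and 1, which overlapped. The visceral endoderm loci turned to 16 and 14 in liver against 8 and 11 in yolk sac, the hepatic loci had 19 and 18 against 8 and 8, and the erythroid loci 17 and 18 against 1 and 1. Shortening also changed some promoter counts of the markers. Hepatic markers then had 6 and 6 in liver against 2 and 2 in yolk sac, so their equal counts did not hold. Mesothelial markers had 0 and 1 against 2 and 4, visceral endoderm markers 6 and 4 against 7 and 7, and parietal endoderm markers 5 and 6 against 6 and 5. Erythroid, mesenchymal and endothelial promoter counts stayed the same. The part of these cell types in the counts at the basement membrane genes was not tested.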

How the data were processed

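PRO-seq peak lists of 2 liver and 2 yolk sac libraries were used as the authors deposited them, 1 list per library. The values are peak positions and a dREG score per peak; the score is the authors' deposited score, not scaled between libraries. Per the submitters' processing notes, mm10, Bowtie2 and bedtools were used; versions, dREG settings and filters are not given in the sources used here. Positions are on GRCm38 (mm10), printed 1-based; nearly all peak starts lie on a 50 bp grid.

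Genes and starts came from GENCODE M21, and promoter sequences and RefSeq starts from RefSeq (GRCm38.p6). The RefSeq start is the 5' end of the RefSeq gene, which for Sparc lies inside the GENCODE span. Overlap means at least 1 bp. Of several promoter peaks of a gene the widest was used. Python 3.11.15, numpy 2.4.6, pandas 2.3.3, scipy 1.17.1 and matplotlib 3.10.9 were used. The functions were tested on simulated lists: all 200 planted yolk-sac-only promoter peaks and all 200 planted distal peaks were returned, in a run over 20807 coding genes.

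The members and lists were chosen with earlier results of these data known. All members are named; genes of other lists are named when their promoter was called in both libraries of 1 tissue only, or when their distal counts did not overlap and differed by at least 3 peaks. A gene of the lists is not reported here. Alternatives were other windows, flanks and merge distances, assignment by midpoint, 2 score filters, leaving out single libraries, and a block on replicate number.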

Additional observations from a re-analysis of the deposited data

How the results depend on the processing

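The difference in the number of genes with a promoter peak (1 gene) turned to -2 with lists of equal length and was 1.5 with the higher-scoring 50% of each list; the causes beyond the shorter lists were not tested. The log2 ratio of distal peaks at the 10 loci (2.70) was 3.43 with the higher-scoring 50%, 1.58 with lists of equal length, 3.02 with flanks of 10 kb, 2.46 with 50 kb and 3.83 without flanks, and 2.53 to 2.89 when single libraries were left out. The mean width difference (1341 bp) was 1037.5 bp over the 4 genes left with lists of equal length, whose own widths are the same by construction, and the difference in width relative to the list median (0.877) was 0.547. Yolk-sac-only regions (36) numbered 13 with the higher-scoring 50% and 14 with lists of equal length. Liver-only regions (1) numbered 0 with the higher-scoring 50%, with flanks of 10 kb and without flanks, and 1 to 2 when single libraries were left out. Regions called in all libraries (3) numbered 6 with flanks of 50 kb, 1 without flanks and 3 to 5 when single libraries were left out. Of 253 values of single genes under these alternatives, 212 moved by no more than the spread between replicates, 41 moved further and 0 reversed. The 41 all came from the score filters, other flanks or no flanks. A promoter call with a difference of 0 between tissues could not be labelled reversed. The calls of Lama1 and Lamb2 (lists of equal length) and Lamc1 (higher-scoring 50%) turned liver-only and are among the 41. With lists of equal length the score limit was higher in yolk sac than in liver.

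With the replicate number as a block, the differences (1 gene, 1341 bp and a log2 ratio of 2.70) are the same by construction, and the exact permutation p is 0.5, the smallest possible. Differences between replicates 1 and 2 did not go together in the tissues (Pearson r = 0.00586 across 14408 genes, which are not independent replicates), and the labels give the number no meaning. Depth is unknown, so an absent peak may be a site below detection.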

Other observations

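Among the marker genes, large differences in distal peaks were found at Prdm1, a transcriptional repressor, with yolk sac counts of 11 and 11 and liver counts of 2 and 1, at Pecam1, an endothelial adhesion molecule, with 11 and 9 against 2 and 2, and at Pdgfrb, the receptor of pericytes and mesenchyme, with 9 and 7 against 0 and 0. Krt19, a keratin of mesothelium and other simple epithelia, had promoter peaks in yolk sac only, at the 85.9 and 89.0 percentiles, and 5 and 4 distal peaks against 0 and 0. In the other direction, Slc4a1, the anion exchanger of red cells, had liver counts of 6 and 6 and yolk sac counts of 1 and 0. These genes were picked for their differences on the full lists and do not stand for the markers. Cubn, not picked, had 9 and 8 against 2 and 3, while Gata1 had 2 and 3 in both tissues. Of coding genes with a distal peak, 47.2% were higher in yolk sac and 8.2% in liver without overlap, and the median difference was 1 peak.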
